A study of Mus musculus with 6 samples.

Results

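The transcript abundance of the wild type mouse lung was described across every gene of the deposited table. The rule took the wild type mean of each of the 20494 rows, 1 row per gene cluster, and ranked the rows by it, so all 20494 rows of 20494 are members. Values of 3 of the 6 libraries of the study entered, and the lincRNA-Cox2 knockout libraries were not compared. The wild type mice were untreated C57BL/6 males aged 4 months, and RNA came from whole lungs that were snap frozen, and the RNA integrity number averaged 9.45 in the study. No transgene or Cre allele is named for them. The labels speak of mice and give each library its own title, and they state neither littermates nor pooling.

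The lung exchanges gas across alveoli, where thin alveolar type 1 cells lie against a dense capillary bed. Alveolar type 2 cells secrete surfactant, a film of lipid and protein that lowers surface tension. The airways are lined by club cells, which secrete proteins and metabolise foreign chemicals, and by ciliated cells, which clear mucus. Fibroblasts, smooth muscle, pericytes, mesothelium, resident macrophages and blood cells make up the rest, and whole-lung RNA is a mixture of all of them.

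Each value is the authors' mean over the 3 wild type libraries of counts scaled by a size factor for each library, termed normalized counts. The 20494 means summed to 3.71e+07 normalized counts, which is a scaled total and not the depth of a library. Rows with high means carry no SD, since the mean alone is used, and the order of 2 high rows was not tested. For low rows the mean could be split into whole reads of each library (the counting unit, which for paired ends may be a fragment), the libraries being named A, B and C since this split gives no replicate number. There, rows with 90 to 179 reads in all had a median coefficient of variation of 14.2% between libraries, against 20.5% at 30 to 89 reads, 34.8% at 10 to 29 and 86.6% at 1 to 9. These figures include counting error. The mean chi-square over its degrees of freedom, about 1 from counting alone, was 1.58, 1.20, 0.965 and 0.975 in the same order. Levels of different genes were compared per kb of exon, and counts not divided by length were used for ranks, thresholds and shares of the total.

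Abundance was spread over many genes. The median row had 571 normalized counts and the highest row, Epas1, had 101952. The first 10 rows held 2.29% of the total, the first 100 held 11.3% and the first 1000 held 39.0%. Of the total, 10% lay in 82 rows, 50% in 1668 rows (8.14% of all) and 90% in 7454 rows. The lower 10247 rows together held 3.54%.

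**Figure D1:**
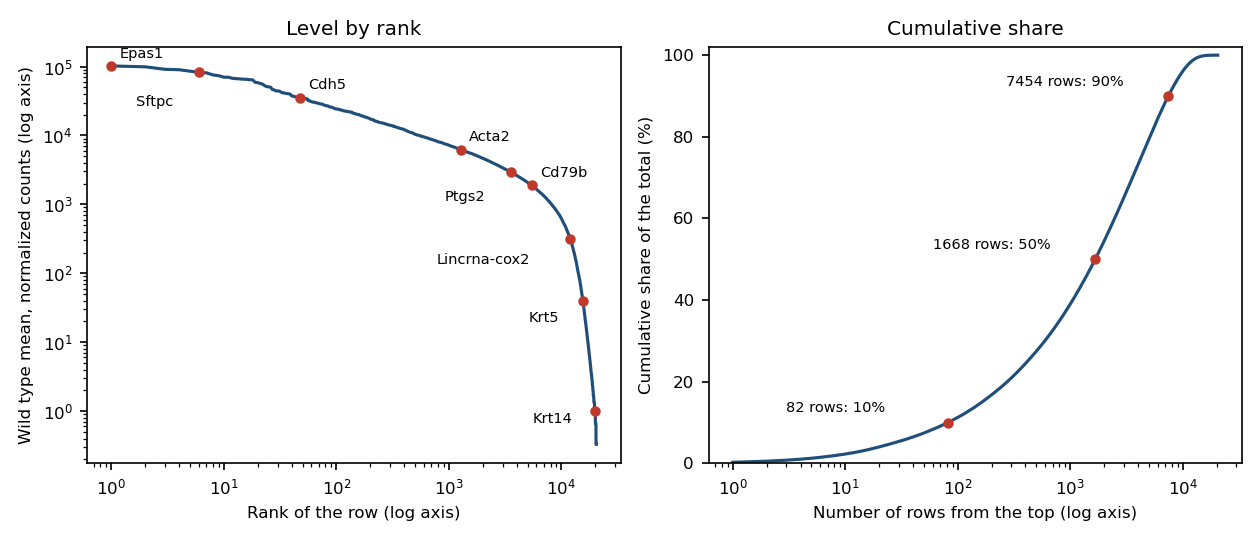
Left, the wild type mean of each row in normalized counts (log axis) against its rank (log axis). Marked genes are Epas1, Sftpc, Cdh5, Acta2, Cd79b, Ptgs2, lincRNA-Cox2, Krt5 and Krt14. Right, the cumulative share of the total (%) against the number of rows from the top (log axis), which reaches 50% at 1668 rows and 90% at 7454 rows.

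Most rows of the table had reads. A mean of at least 1 was found for 19874 rows and a mean of at least 10 for 17205 rows (84.0%). At least 1000 normalized counts were reached by 8166 rows, which held 92.1% of the total, and at least 10000 by 542 rows, which held 28.6%. Only 82 rows (0.400%) were at 0 in the wild type libraries. A count of 3 reads over the group, the limit that a count of 0 allows, corresponds to 1.006 normalized counts, and this limit covers counting error only.

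By class of gene, the 17013 rows placed at protein-coding genes held 96.6% of the total. The 407 rows at long intergenic noncoding RNAs held 0.252%, of which Neat1, the scaffold RNA of paraspeckles (28488 normalized counts, rank 75), and Malat1, a nuclear-speckle RNA (16714, rank 214), were the highest. The fixed list of 9 long noncoding RNAs held 0.135% and had a median of 178 per kb, which is close to the median of all 18303 genes with a length (178 per kb). Its levels per kb were 2394 for Malat1, 1372 for Neat1, 578 for Gas5, a host of small nucleolar RNAs, and 232 for Snhg1, another such host. Xist, the RNA that coats the inactive X chromosome in females, was the lowest at 3.01 per kb, with 55, 47 and 59 reads in libraries A, B and C of these males.

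LincRNA-Cox2 had a wild type mean of 311 normalized counts (rank 12002 of 20494; 178 per kb). Its neighbour Ptgs2, the inducible cyclooxygenase of prostaglandin synthesis, had 2929 (rank 3566; 639 per kb).

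Ranked by count, the first 30 rows mixed long transcripts with the products of a few lung cell types. Epas1, the hypoxia-inducible factor subunit HIF-2 alpha, stood first. Cytb, cytochrome b of the mitochondrial genome, had 98954 normalized counts. Sptbn1, a spectrin of the membrane skeleton, had 89774 and Ahnak, a very large scaffold protein, had 85567. Surfactant was represented by Sftpc (82187), Sftpa1 (69990.2) and Sftpb (64204), the type 2 cell phosphate transporter Slc34a2 (65987), the surfactant-regulating receptor Gpr116 (65352) and the fatty acid desaturase Scd1 (56904).

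Genes of secretory airway cells in the first 30 were the cytochrome P450 Cyp2f2 (73515), the carbonyl reductase Cbr2 (65252) and the secretoglobin Scgb1a1 (50719). Sec14l3, a lipid-binding Sec14-like protein, had 80972. Lyz2, the lysozyme of macrophages and type 2 cells, had 75455. The actin regulators and adhesion proteins Gsn (67232), Tns1 (50926) and Actb (44287), and the elongation factors Eef1a1 (66681) and Eef2 (58909), were also there.

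Endothelial and type 1 cell genes completed the first 30. Ptprb, a phosphatase of endothelial junctions, had 52865 and Cd36, a fatty acid uptake receptor, had 46233. Emp2, a membrane protein of type 1 cells, had 50215, Clic5, a chloride intracellular channel protein, had 45772, and App, the amyloid precursor protein, had 44301.

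Several of the first 30 rows have names that limit what can be read from them. The first group, 3 rows, carries sequence accessions in place of a symbol, holds 0.568% of the total and is not named. Gm10222 (69854) and Atpase6 (58299.6) were matched to chromosome 1 models (mm10, chr1:24612407-24612700 and chr1:24613974-24614651) that are identical, over their whole 294 and 678 bases, to the mitochondrial genes mt-Nd4l and mt-Atp6. Reads of these nuclear copies and of the mitochondrial genes cannot be told apart, so both rows were left out of the ranks per kb. With Cytb they held 0.612% of the total. That is the share of mitochondrial rows known by name. The 3 unnamed rows have cluster numbers in 1 run with Cytb and Gm10222, after Ccr2 of chromosome 9 and before Tspan7 of chromosome X. Atpase6 lies outside that run. The sequences of the 3 unnamed rows were not examined, so their mitochondrial origin was not tested. If they are mitochondrial, their 0.568% adds to this share.

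Dividing by exon length moved short transcripts up. Of the first 30 genes by count that have a rank per kb, only 15 were among the first 30 genes per kb. These 30 genes by count reach down to row 36. The median exon length was 4887 bases for these 30 genes by count and 1603 for the first 30 per kb. It was 3872 for all genes. Passing over rows without a rank per kb brought in long transcripts such as Macf1 (31402 bases, rank 34). Scgb1a1, a secreted protein of club cells, was first at 106553 normalized counts per kb. It was followed by Sftpc, a hydrophobic surfactant protein of type 2 cells, at 79485, Lyz2 at 57336 and Cbr2 at 49172. The globins Hbb-bs (45811) and Hba-a2 (39091) came next, then Cyp2f2 (36304), Sftpb (32624), Sec14l3 (29085) and Eef1a1 (26747).

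The second 10 per kb were Sftpa1 (24472), Rplp1, an acidic ribosomal stalk protein (23085), Hbb-bt (21647), the MHC class I light chain B2m (21548), Gsn (21296), the actin-binding peptide gene Tmsb4x (21064), the airway secretoglobin Scgb3a2 (21001), the type 1 cell receptor Ager (19102), the methyltransferase Inmt (18940) and the class II invariant chain Cd74 (18722). The margin of Scgb1a1 over Sftpc was 1.34-fold per kb of merged exons and 1.03-fold per kb of the longest transcript, so Scgb1a1 was ahead with both lengths and the margin depended on the length used. Epas1, first by count, was 21st at 18238 per kb.

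**Figure D2:**
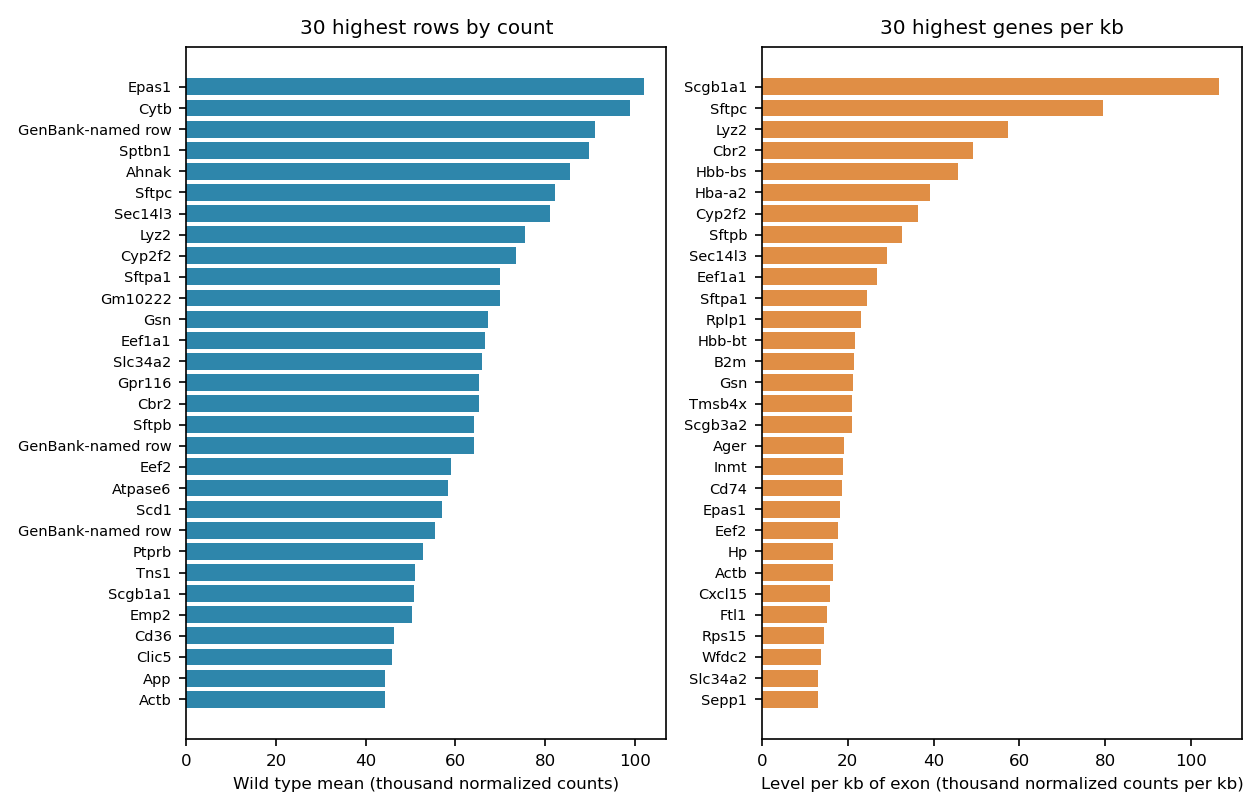
The 30 highest rows by wild type mean (left, normalized counts, in units of 1000) and the 30 highest genes per kb of exon (right, normalized counts per kb, in units of 1000). Bars are the authors' group mean of 3 libraries with no error available. Epas1 leads on the left and Scgb1a1 on the right.

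The DNA before the start of the most abundant transcripts was compared with that of the rest, as a description with no test. Among protein-coding genes ranked by level per kb, 89 RefSeq promoters were available for 73 of the first 100 genes, with no entry for Scgb1a1 or Sftpc, and 8 of them (8.99%) held the letters TATAAA on the gene's strand beginning 45 to 16 bases before the start. The share was 2.68% for ranks 101 to 1000, 1.17% for ranks 1001 to 5000 and 0.983% for ranks 5001 to 10000. It was 2.19% for ranks 10001 to 15000 and 3.44% for the lowest genes, against 1.75% of all 16547 promoters of 13127 genes. On either strand and anywhere in the 300-base window, TATAAA stood in 23.6% of the first 100 genes' promoters and in 8.63% of all. The ratio of observed to expected CpG dinucleotides, in the same window, exceeded 0.6 in 40.4% of the first 100 genes' promoters, in 71.6% at ranks 1001 to 5000, in 23.5% at the lowest ranks and in 58.0% of all. Both ends of the abundance range held more TATAAA and fewer CpG-rich promoters than the middle. A match is a run of letters and not a site shown to be in use, and several promoters may belong to 1 gene.

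A subset of the 8 promoters with TATAAA are printed, as 100 bases before the start from RefSeq (GRCm38, the mm10 build), with TATAAA in capitals. They belong to Sftpa1, a surfactant protein (chr14:41131688-41131787, plus strand), Cxcl15, a chemokine of lung epithelium (chr5:90794434-90794533, plus strand), Hbb-bt, a beta globin (chr7:103813924-103814023, minus strand), and Fos, an immediate-early transcription factor (chr12:85473790-85473889, plus strand).
Sftpa1: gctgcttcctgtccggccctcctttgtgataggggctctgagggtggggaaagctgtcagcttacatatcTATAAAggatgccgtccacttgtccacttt
Cxcl15: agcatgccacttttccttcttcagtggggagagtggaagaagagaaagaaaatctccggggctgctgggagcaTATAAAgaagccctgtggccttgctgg
Hbb-bt: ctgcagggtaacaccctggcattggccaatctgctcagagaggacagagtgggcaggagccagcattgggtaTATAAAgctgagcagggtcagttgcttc
Fos: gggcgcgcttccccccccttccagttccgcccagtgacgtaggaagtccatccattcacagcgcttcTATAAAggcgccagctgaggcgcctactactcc
The motif begins 30 bases before the start in Sftpa1, 27 in Cxcl15, 28 in Hbb-bt and 33 in Fos. The remaining 4 promoters with TATAAA in that window were those of Cyr61, H2-D1, Bpifa1 and Gstm1, named here after the search.

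For contrast, promoters of genes that every cell uses are shown with each CG in capitals. Eef1a1, the translation elongation factor that carries aminoacyl-tRNA to the ribosome (chr9:78481725-78481824, minus strand), and Rplp0, a protein of the large ribosomal subunit (chr5:115559367-115559466, plus strand), were both among the first 100 genes, and neither held TATAAA in the window.
Eef1a1: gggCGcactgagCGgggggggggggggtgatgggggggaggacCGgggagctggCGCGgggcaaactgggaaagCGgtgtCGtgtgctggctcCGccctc
Rplp0: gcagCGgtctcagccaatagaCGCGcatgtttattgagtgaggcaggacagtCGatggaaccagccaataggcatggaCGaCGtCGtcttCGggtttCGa
The ratio of observed to expected CpG over the 300 bases was 0.697 for Eef1a1 and 0.928 for Rplp0. It was 0.248 for Sftpa1, 0.177 for Cxcl15 and 0.0633 for Hbb-bt, while Fos, at 0.775, held both a TATAAA and many CpG.

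Epithelial genes held the largest share of the total among the groups of cell type lists. Over 8 epithelial lists, 76 genes held 2.71% of the total, and 30 of them were among the first 1000 rows, which are 4.88% of all rows. The 5 endothelial lists held 1.34% with 39 genes, 21 of them in the first 1000 rows. The 5 mesenchymal lists held 0.628% with 45 genes, 9 of them in the first 1000, and the 9 immune lists held 0.244% with 73 genes, 1 of them in the first 1000. Fewer cells of a type and less RNA per cell cannot be told apart in whole tissue, and the lists were chosen for specificity, so these shares are not shares of cells. By level the order differed: the median was 957 per kb for epithelial and 2279.5 for endothelial genes, and at least 1000 normalized counts were reached by 46 of 76 and 36 of 39.

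**Figure D3:**
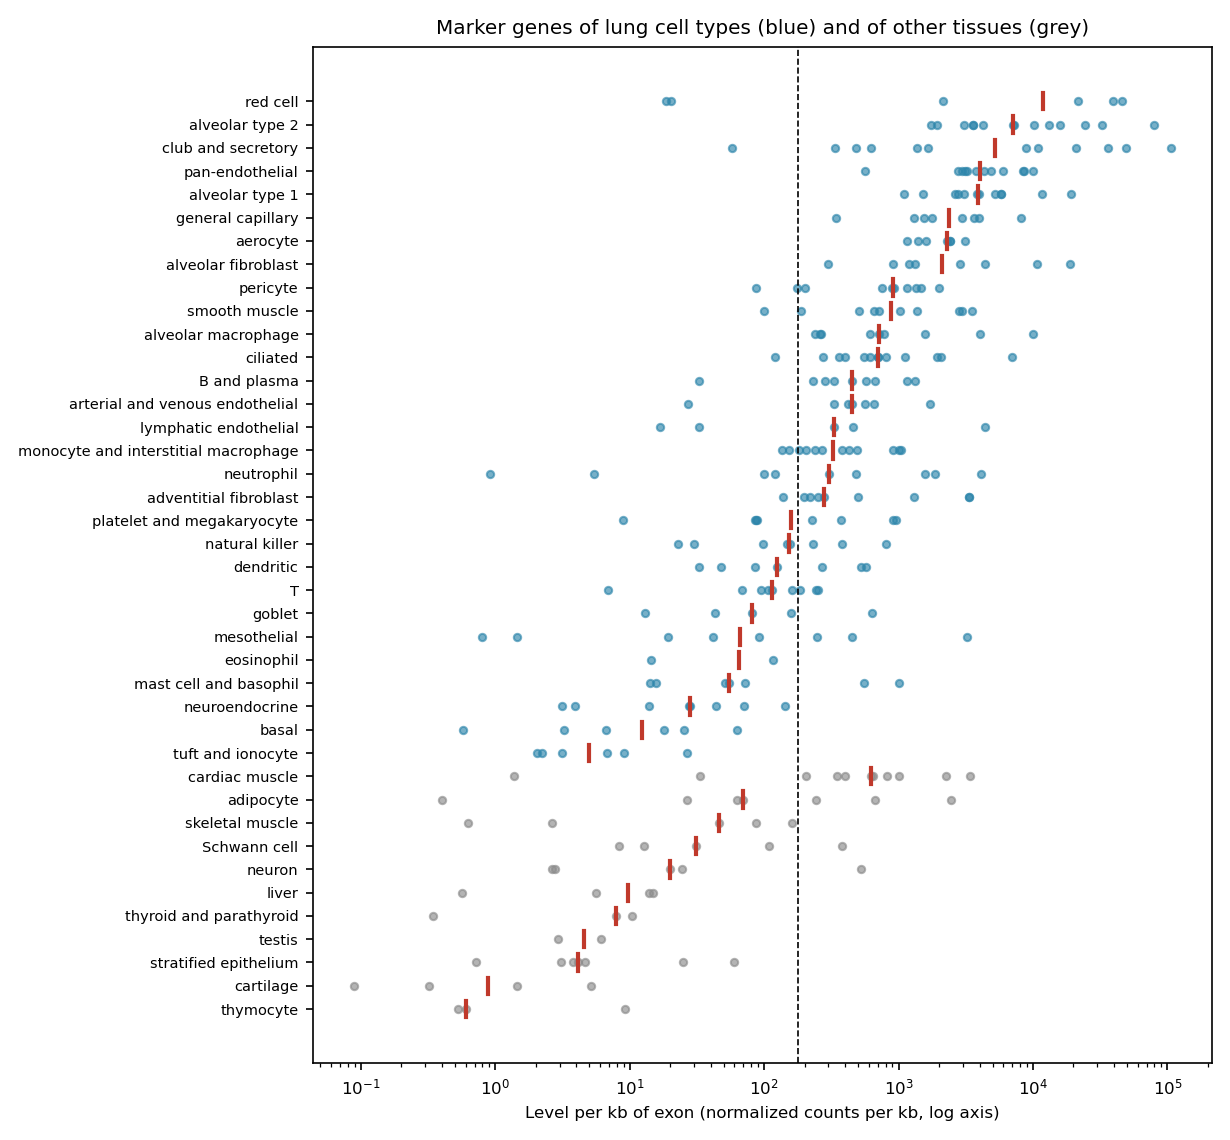
Level per kb of exon (normalized counts per kb, log axis) of each marker gene, by list; lung cell types are blue and other tissues grey. The red bar is the list's median and the dashed line the median of all genes, 178; medians run from 11888 for red cells to 4.93 for tuft cells and ionocytes among lung lists.

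Type 2 cell genes were high as a group. All 14 exceeded the median gene per kb, 13 were among the first 1000 rows, and their median was 7131 per kb. After Sftpc, Sftpb and Sftpa1 came Cxcl15 at 15989 per kb. The lowest was Lpcat1, a phospholipid-remodelling acyltransferase, at 1749. The 4 surfactant protein genes held 0.649% of the total, with Sftpd, a soluble collectin, lowest at 10118 per kb, 7.86-fold below Sftpc.

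The genes that make and pack surfactant lipid were also mostly high. Of 15, all exceeded the median gene, and the list median was 1992 per kb. Slc34a2 had 13163 per kb, Scd1 11632, Prdx6, a phospholipase and peroxidase of lamellar bodies, 6004, and Elovl1, a fatty acid elongase, 4666. Acaca, which forms malonyl-CoA, was lowest at 213.

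Type 1 cell genes all exceeded the median gene, 12 of 12, with a list median of 3910.3 per kb. Ager had 19102 per kb, Hopx, a small homeodomain protein, 11609, Emp2 5809 and Cldn18, a tight junction claudin, 5771. Col4a3, a chain of alveolar basement membrane collagen, was lowest at 1103.

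Secretory airway genes had the widest range among the epithelial lists. The median of 12 was 5243 per kb, from Scgb1a1 to Krt15, a keratin, at 57.8. Within the secretoglobins, small secreted proteins, Scgb3a2 had 21001 and Scgb3a1 8824, so Scgb1a1 was 12.1-fold above Scgb3a1, and Scgb1c1 was lowest at 1006. Goblet cell genes were low: Tff2, a trefoil peptide, had 632 per kb, Clca3, a goblet cell secretory protein, 158, Agr2, a disulfide isomerase for mucins, 81.5, and Spdef, the goblet cell transcription factor, 43.1. Muc5ac, the gel-forming mucin of goblet cells, was lowest at 13.04, and the list median was 81.5.

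Ciliated cell genes were intermediate, with a median of 699.5 per kb and 12 of 13 above the median gene. Tppp3, a tubulin-binding protein, had 6977 per kb, Dynlrb2, a dynein light chain, 2059, Foxj1, the master transcription factor of motile cilia, 1929, and Rsph1, a radial spoke protein, 1119.6. Hydin, a giant central pair protein, was lowest at 119.5.

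The rarer epithelial cells had little signal. Basal cells, the stem cells of the larger airways, had a list median of 12.3 per kb: Aqp3, a water and glycerol channel, had 62.7, Ngfr, a neurotrophin receptor, 25.5, and Krt5, a basal keratin, 17.9. Krt5 had 27, 52 and 38 reads in libraries A, B and C. Trp63, the basal cell transcription factor, had 50, 82 and 36 reads. Krt17 had 2, 7 and 6 reads and Krt14, the lowest, had 1 read in each. Library B was the highest of the 3 for Krt5, Trp63 and Krt17.

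Neuroendocrine genes had a list median of 28.0 per kb. Uchl1, a neuronal ubiquitin hydrolase, had 143 per kb, Resp18, a secretory granule protein, 70.5, Calca, which encodes CGRP, 43.6, and Scg5, a granule chaperone, 28.2. Insm1, their transcription factor, was lowest with 11, 9 and 9 reads, and Chga, the granule protein chromogranin A, had 10, 11 and 11. Tuft and ionocyte genes were the lowest lung list, at 4.93 per kb, led by Dclk1 at 26.5. Ascl3, an ionocyte factor, had 6, 6 and 7 reads, Avil, an actin-binding protein of tuft cells, 19, 27 and 22, and Trpm5, their cation channel, 10, 17 and 12. The libraries overlapped closely for Insm1, Chga and Ascl3.

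**Figure D4:**
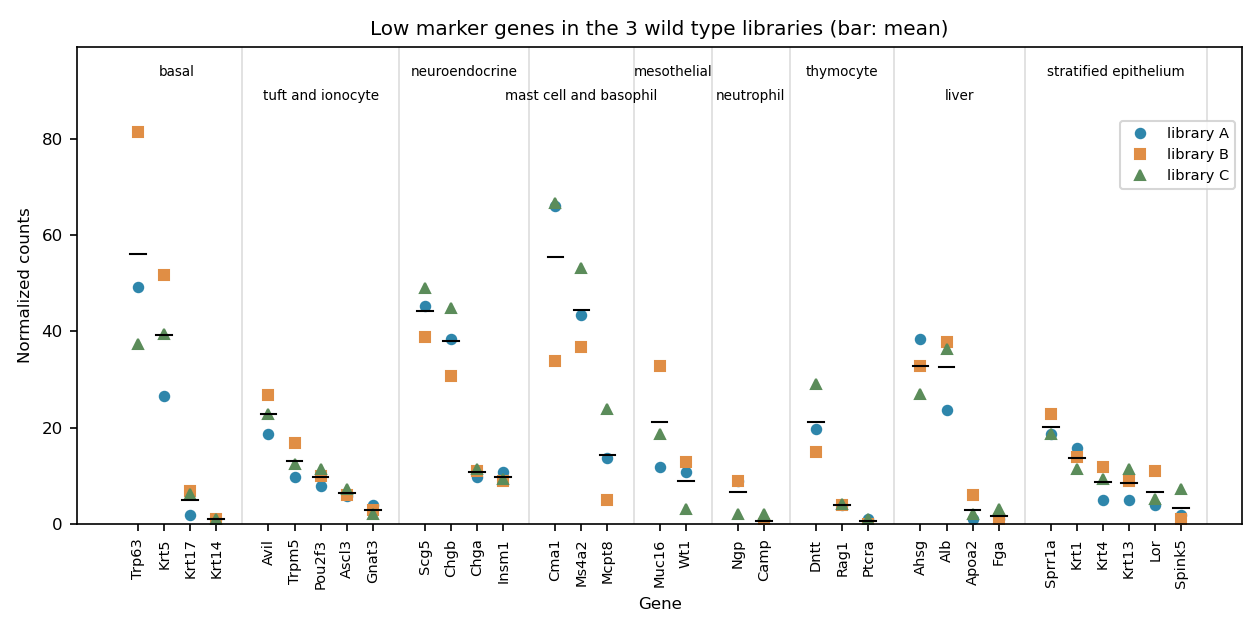
Normalized counts of low marker genes in each of the 3 wild type libraries, A (circles), B (squares) and C (triangles), with the mean as a bar, grouped by list. Trp63 spans 37.5 to 81.5 normalized counts, and Chga and Insm1 lie between 8.94 and 11.4 in every library.

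Pan-endothelial genes exceeded the median gene in 12 of 12 cases, with a median of 4012 per kb. Cldn5, the endothelial tight junction claudin, had 10023 per kb, Calcrl, the adrenomedullin and CGRP receptor, 8522, Cdh5, the junctional VE-cadherin, 8388, and Eng, a TGF-beta co-receptor, 6013. Emcn, a sialomucin, was lowest at 562.

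The 2 kinds of alveolar capillary cell had like medians. General capillary cells, which can divide and repair the bed, had 2374 per kb over 8 genes: Plvap, the diaphragm protein of fenestrae and caveolae, had 8077, Ptprb 3965, Cd93, a C-type lectin, 3620.1, and Sema3c, a guidance ligand, 2961. Hmcn1, a matrix protein, was lowest at 339.7. Aerocytes, the large capillary cells that face the gas, had 2279.5 over 7 genes: Car4, a membrane carbonic anhydrase, had 3112, Kdr, the main VEGF receptor, 2412, Tbx2, a T-box factor, 2407, and Prx, periaxin, 2279.5. Apln, the ligand apelin, was lowest at 1150.3.

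Larger vessels and lymphatics were lower. The arterial and venous list had a median of 446.5 per kb, led by Vwf, the platelet adhesion protein, at 1705 and Slc6a2, a noradrenaline transporter, at 654, with Sox17, an arterial transcription factor, at 561 and Gja5, an arterial connexin, at 446.5. Dkk2, a Wnt antagonist, was lowest at 27.3. In the lymphatic list Lyve1, a hyaluronan receptor, had 4365 and Prox1, the transcription factor that sets lymphatic identity, 16.7, with Flt4, the VEGF-C receptor, at 458, Mmrn1 at 332 and Reln at 32.8.

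Alveolar fibroblast genes led the mesenchyme with a median of 2099 per kb. Inmt had 18940 per kb, Ces1d, a lipid-hydrolysing carboxylesterase, 10637, Npnt, a basement membrane integrin ligand, 4414 and Limch1, an actomyosin regulator, 2883. Fgfr4 was lowest at 299. Adventitial fibroblasts, which surround vessels and airways, had a median of 279, with Dpt, dermatopontin, at 3365, Clec3b, tetranectin, at 3331, Dcn, a collagen-binding proteoglycan, at 1312 and Serpinf1 at 500.5. Scara5, a ferritin receptor, was lowest at 137.

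Contractile cells were lower than alveolar fibroblasts. Pericyte genes had a median of 909.5 per kb, with Cox4i2, an oxygen-responsive respiratory subunit, at 2009, Gucy1a3, a nitric oxide receptor subunit, at 1470.3, Postn, a matricellular protein, at 1353 and Pdgfrb, the pericyte growth factor receptor, at 1157, and Cspg4, the NG2 proteoglycan, lowest at 86.3. Smooth muscle genes had a median of 873, with the myosin light chain Myl9 at 3493, the actin-binding Tagln at 2963, the smooth muscle actin Acta2 at 2824 and the intermediate filament Des at 1360.1. Synpo2 was lowest at 99.3.

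Mesothelial cells cover the lung's outer surface, and their list had a median of 66.2 per kb. Krt19, a keratin that other epithelia also make, stood apart at 3247, then Upk1b, a uroplakin, at 449, Rspo1, a Wnt enhancer, at 246 and Msln, mesothelin, at 90.9. Muc16, a membrane mucin, was lowest at 0.801 per kb with 12, 33 and 18 reads, and Wt1, the mesothelial transcription factor, had 11, 13 and 3.

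Of the immune lists, alveolar macrophages had the highest median, 711 per kb over 9 of 10 genes with a length. Chil3, a chitinase-like protein, had 9922 per kb, Ear2, an eosinophil-associated ribonuclease, 4016, Plet1, a surface glycoprotein, 1578, and Atp6v0d2, a proton pump subunit, 777. Krt79 was lowest at 237. Monocyte and interstitial macrophage genes had a median of 324, with the growth factor receptor Csf1r at 1037 and the complement chains C1qa at 1011, C1qb at 914 and the surface marker Emr1 at 491.5.

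B and plasma cell genes had a higher median than T cell genes, 453 against 114 per kb, with 8 of 9 and 3 of 9 members above the median gene. The B cell receptor chains Cd79b and Cd79a had 1326 and 1152, the joining chain Igj 673 and Faim3, an IgM receptor, 569.9, and Pax5, the B cell identity factor, was lowest at 32.6. Among T cell genes, Lck, a receptor-linked kinase, had 252, Cd8b1 244, the interleukin receptor Il7r 186 and the receptor chain Cd3d 162. Trat1, a receptor adaptor, was lowest with 39, 26 and 31 reads. Natural killer genes had a median of 152, led by the granule protease Gzma at 811, the granule protein Nkg7 at 382, the receptors Klrb1c at 232 and Ncr1 at 155, and Eomes was lowest at 23.02.

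Neutrophil genes had a median of 303 per kb, with 5 of 9 above the median gene. S100a9 and S100a8, calcium-binding alarmins, had 4107 and 1561 per kb, Retnlg, a resistin-like protein, 1858, and the growth factor receptor Csf3r 478. The protease genes Mmp9 and Mmp8 had 303 and 99.8, and the chemokine receptor Cxcr2 119.9, all 3 being named after their values were seen. The lowest were Ngp, a granule protein, with 9, 9 and 2 reads, and Camp, the cathelicidin, with 0, 0 and 2. Camp's 2 reads have an exact 95% Poisson interval of 0.242 to 7.22.

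Other blood-derived lists were low, apart from red cells. Red cell genes had a median of 11888 per kb over 6 genes, and the 3 globin rows lie among the first 13 genes per kb, and Alas2, the haem synthesis enzyme of red cells, had 2129.9. Platelet genes had a median of 158, with the chemokines Ppbp at 951 and Pf4 at 909, the receptor chains Gp9 at 373 and Itga2b at 227, and Gp6, a collagen receptor, lowest with 63, 52 and 42 reads.

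Dendritic cell genes had a median of 124 per kb, with Clec9a, a receptor for dead cells, at 572, Ccr7, a homing receptor, at 523, Cd209a at 268, Zbtb46, a transcription factor, at 124 and Xcr1, a chemokine receptor, lowest at 32.9. Mast cell and basophil genes had a median of 54.5: Gata2, a factor that endothelium also uses, had 1009, Hdc, which makes histamine, 555, Cpa3, a mast cell carboxypeptidase, 72.2, and Mcpt4 54.5. Mcpt8, a basophil protease, was lowest with 14, 5 and 23 reads, and library B was also lowest for Cma1 (67, 34 and 64) and Ms4a2 (44, 37 and 51). Of the eosinophil genes with a length, Ccr3, the eotaxin receptor, had 116 and Prg2, the major basic protein, had 12, 18 and 6 reads.

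Of 11 lists for neighbouring or distant tissues, cardiac muscle alone had a median above that of all genes. Cardiac muscle genes had a median of 622 per kb, led by the atrial light chain Myl7 at 3422, the cardiac actin Actc1 at 2240.1, the myosin Myh6 at 999 and the atrial hormone Nppa at 814. Myl2, the ventricular light chain, had 2, 4 and 2 reads, 1.37 per kb. In mice, the walls of pulmonary veins hold atrial-type cardiac muscle. Fat cell genes had a median of 70.1, with Cfd, the protease adipsin, at 2448, Cidec, a lipid droplet protein, at 664, Adipoq, adiponectin, at 245 and Plin1 at 70.1. Ucp1, of brown fat, had 1, 1 and 0 reads.

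The remaining tissues gave low levels. List medians were 45.9 per kb for skeletal muscle, 31.0 for Schwann cells, 19.96 for neurons, 9.76 for liver, 7.90 for thyroid and parathyroid, 4.54 for testis, 4.10 for stratified epithelium, 0.886 for cartilage and 0.609 for thymocytes. A listed gene without a row does not enter its median. Rows were found for 2 of 5 testis genes, 4 of 6 for liver and for cartilage, and 3 of 4 for thymocytes and for thyroid and parathyroid. For skeletal muscle and for neurons it was 5 of 6. Stmn2, a tubulin-binding protein of neurons, was an exception within its list at 527 per kb, as was Mbp, a myelin protein, at 378. Alb, serum albumin of liver, had 24, 38 and 35 reads, and Dntt, the thymocyte nucleotide transferase, had 20, 15 and 28. Acan, the cartilage proteoglycan, had 0, 2 and 0 reads and Ptcra, the pre-T cell receptor, 1, 0 and 1.

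Ribosomal protein genes and cytoskeletal genes, used by every cell, each took a larger share of the total count than any of the 29 cell type lists. Per kb, where short transcripts weigh more, cytoskeletal genes held 1.17% of the summed level, below the type 2 list at 2.22% and the secretory list at 2.54%, and ribosomal protein genes, at 4.04%, stayed above both. The 83 ribosomal protein genes held 1.72%, with a median of 3806 per kb and 81 of them above the median gene. Rplp1 had 23085 per kb, Rps15 14560.2, Rpl4 12912 and Rplp0 10637. Rpl39l, a testis-type paralogue, was lowest at 12.1, with 19, 2 and 9 reads. Reads of ribosomal genes can also match their many pseudogenes, and how these were counted is not given in the sources used here.

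**Figure D5:**
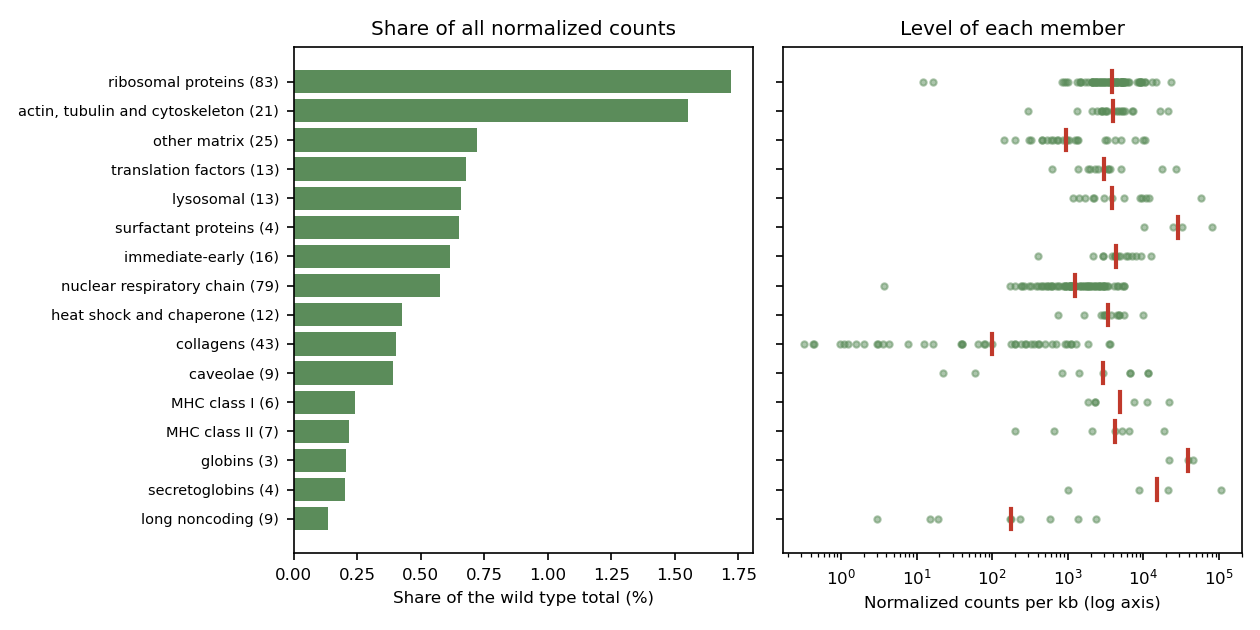
Left, the share of the wild type total (%) held by each class of genes, with the number of genes in brackets. Right, the level of each member per kb (log axis) with the class median in red; ribosomal proteins hold 1.72% and collagens span the widest range, 0.323 to 3616 per kb.

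Cytoskeletal genes held 1.55%, led per kb by Tmsb4x, Actb (16531), Actg1 (7198) and the tubulin Tuba1a (7156), with Dst, a giant linker, lowest at 298. Translation factors held 0.677%, with Eef1a1 at 26747 per kb, Eef2 at 17722, Eif1 at 5019 and Eif5a at 3605, and Eef1d lowest at 615. Lysosomal genes held 0.659%, with Lyz2 4.77-fold above its neighbour Lyz1 (12021 per kb), then Psap, the saposin precursor, at 10860.0 and the protease Ctsd at 9679. Ctsl was lowest at 1155. Lyz1 and Lyz2 are close paralogues, so reads may be split between them.

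The nuclear genes of the respiratory chain held 0.577% over 79 genes, with a median of 1236 per kb. Cox6a1 (5579), the ATP synthase chain Atp5a1 (5472), Cox8a (5194) and Cox6b1 (4563) led, and Cox7b2, a testis form, had 3, 1 and 2 reads. Immediate-early genes, which respond within minutes to stimuli, held 0.615%, and all 16 exceeded the median gene, with Btg2 at 12686 per kb, Fos at 9259.8, Jun at 7941 and Dusp1 at 7099 and Fosb lowest at 399.5. Heat shock and chaperone genes held 0.425%, with Hsp90ab1 at 9729, Hsp90b1 at 5490.4, Hspa8 at 4802 and Calr at 4690.2 and Dnajb1 lowest at 750.5.

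Among these classes collagens ranged most widely. The 43 collagen chains held 0.401%, with a median of 101 per kb, below the median gene, and 20 of 43 above it. The basement membrane chains Col4a1 and Col4a2 had 3616 and 3489 per kb, then Col6a1, of microfibrils, 1838 and Col3a1, of interstitial fibres, 1271. Col2a1, of cartilage, was lowest with 3, 5 and 1 reads. The 25 other matrix genes held 0.721%, led by Mgp, an inhibitor of calcification, at 10366, Sparc, a collagen-binding protein, at 9808, Sparcl1 at 7716 and Mfap4, an elastic fibre protein, at 5058. Lama2 was lowest at 141.

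Genes of caveolae, the flask-shaped pits abundant in lung endothelium and type 1 cells, held 0.391%. Cav1 and Cav2, their coat proteins, had 11616 and 6735 per kb, and the cavins Sdpr and Ptrf had 11499.7 and 6692. The muscle forms were low, with Cav3 at 58.5, 199-fold below Cav1, and Murc at 22.2 with 39, 48 and 49 reads.

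Antigen presentation genes were high in both classes. MHC class I genes held 0.242%, with B2m at 21548 per kb, H2-D1 at 11102, H2-K1 at 7617 and H2-Q4 at 2292, and H2-Q7 lowest at 1828. Class I genes are highly similar to each other, so their split is uncertain. MHC class II genes held 0.219%, with Cd74 at 18722, H2-Eb1 at 6545, H2-Ab1 at 5133 and H2-Aa at 4241, and Ciita, their master regulator, lowest at 199.

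Transcription factors of the lung list had a median of 784 per kb, and 22 of 24 exceeded the median gene. Epas1 was far ahead at 18238, followed by Klf2, a factor induced by blood flow, at 4243, Foxf1, of lung mesenchyme and capillaries, at 4230.15 and Klf4 at 2956. Hif1a, the paralogue of Epas1, was chosen after its value was seen and had 712, 25.6-fold lower. Sox9, of developing airway tips, was lowest at 6.79 with 25, 38 and 21 reads.

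Genes of fluid and gas handling had a median of 2021.5 per kb over 15. The water channel Aqp1 had 11199.6, the sodium pump beta chain Atp1b1 had 4646, and Aqp5, the water channel of type 1 cells, 3856. Slc4a1, the anion exchanger of red cells, was lowest at 20.2. The vasoactive list had a median of 476, with Ace, the angiotensin-converting enzyme of lung capillaries, at 8333, Acvrl1, a BMP receptor of endothelium, at 6560.5, Bmpr2, its partner, at 1969 and the endothelin receptor Ednrb at 1607. Agtr2, an angiotensin receptor, was lowest with 4, 2 and 6 reads.

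Alveolar signalling ligands had a median of 633 per kb over 18, led by Vegfa, the endothelial growth factor, at 6373, Pdgfb, which attracts pericytes, at 1611, the alarmin Il33 at 1518 and the chemokine Cxcl12 at 1491. Wnt5a was lowest at 97.8. The receptors had a median of 1235 over 16, led by S1pr1, a sphingosine phosphate receptor, at 4356, the angiopoietin receptor Tek at 4287, Kdr at 2412 and Cxcr4, the Cxcl12 receptor, at 2366. Il1rl1, the receptor of Il33, was lowest at 36.7.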

How the data were processed

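RNA of 3 wild type lungs was analysed from 1 table of the series. Libraries were made with a TruSeq v2 kit, which does not mark strand, and read as 50 bp paired ends, per the labels' protocols. DESeq2, STAR 2.5.1b, Bowtie2, bedtools, SAMtools and the mm10 build appear in the submitters' processing notes without a stated role. Their counting rule was not given in the sources used here, nor was their annotation. The signal used is the mean over wild type libraries of counts divided by size factors, as the authors deposited it per the file headers. The authors also deposited a log2 fold change, its standard error and Wald statistic (a score) and p-values for the knockout comparison, none of which was used.

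Rows were ranked and summed with Python 3.11.15, pandas 2.3.3 and numpy 2.4.6, and drawn with matplotlib 3.10.9. With GENCODE M21 and RefSeq synonyms, 18589 of 20494 rows (97.8% of the total) were placed on mm10, 827 of them by a synonym, and 18303 genes had a merged exon length. Where a symbol stood in several rows (292 symbols), lists used 1 row. Of 777 list entries, 752 were found. Means up to 60 were split into whole reads of 3 libraries, named A, B and C with no replicate number, with size factors between 0.961 and 1.02. Of 5539 such rows 5526 had exactly 1 solution; on simulated data all 5256 of 5256 rows with 1 solution were right. Poisson intervals (scipy 1.17.1) cover counting error only. Promoters are RefSeq windows of 250 bases before to 50 after the start, without chromosome 18.

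The genes named are the first 30 rows, the first 20 per kb, up to 4 highest members and the lowest of each list, lincRNA-Cox2 and Ptgs2. The results of some of these genes are not reported here. Others are marked in the text or are low members with reads. No contrast exists within 1 group, so no test was run. The description and lists were chosen with earlier results of these data known, and the promoter search and the setting aside of 2 mitochondrial copies after the values were seen. Alternatives changed the unit of the level, the rows summed, the filter on low values, the length and the list members.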

Additional observations from a re-analysis of the deposited data

How the results depend on the processing

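The shares of the total moved mainly with the unit. Per kb of exon the first 100 held 16.6%, surfactant proteins 1.57%, secretoglobins 1.47%, ribosomal proteins 4.04% and collagens 0.208%, against 11.3%, 0.649%, 0.202%, 1.72% and 0.401% by count; per kb weighs short transcripts more by its construction. With protein-coding genes only, the values were 10.8%, 0.672%, 0.209%, 1.78% and 0.415%. Without ribosomal protein, globin and mitochondrial rows known by name, the first 100 held 11.1%, surfactant proteins 0.666%, secretoglobins 0.207% and collagens 0.412%. With rows of the same symbol summed, the first 100 held 11.3% and ribosomal proteins 1.73%. The number of rows holding 50% of the total lay between 1207 and 1677 and the number with at least 10 normalized counts between 15081 and 17205 under these settings and the filter on low values. With the longest transcript, 19 of the first 20 genes per kb and 10 of the first 10 cell type lists were shared, and without genes held by several lists 10 of 10 were. Leaving out libraries was not run, since rows that can be split into libraries hold 0.200% of the total. No paired analysis was possible because the result comes from no test and 1 group was described. Depth limits the lowest rows, where 48.1% of rows with 1 to 9 reads were seen in all 3 libraries.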

Other observations

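Some low genes were uneven between the 3 wild type lungs; they were chosen after their values were seen and are given as values only. Of 3569 rows with at least 10 reads that could be split into libraries, 79 had a dispersion index (chi-square over its degrees of freedom, about 1 from counting alone) above 5. Library B was the highest in 33 of these, A in 27 and C in 19, and over all 3569 rows the order was the same, with B highest in 1237, A in 1188 and C in 1144. Skint3, a member of the butyrophilin-like Skint family (mm10, chr4:112232245-112300468), had 0, 0 and 102 reads in libraries A, B and C. Edn2, an endothelin (chr4:120161206-120167360), had 0, 5 and 33 reads. The row named Ren2, a renin gene, had 0, 0 and 14 reads. It had no genome placement and Ren1 was not found, so which renin gene gave the reads was not tested. Ly6k, a surface antigen, was high in library A with 72, 21 and 15 reads, as was Ano3, of the anoctamin family, with 24, 4 and 2. Chst4, a sulfotransferase, was high in library B with 13, 47 and 8 reads, as was Bnc1, a keratinocyte transcription factor, with 10, 32 and 3. For Ren2, 1 library held every read, as for Skint3.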
